A study of Mus musculus with 6 samples.

Results

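The secretory granule proteases of mast cells were followed in aortas of aged C57BL/6 mice with and without Sirt2. They were chosen by gene name: 5 names were given, and the 4 analysed here were the chymase genes Mcpt4 and Cma1, the tryptase gene Tpsb2 and the carboxypeptidase gene Cpa3, among 8690 gene names in all. Kit, the stem cell factor receptor gene that completes the set, was not analysed here. RNA was sequenced from 6 aortas, each from its own mouse. The WT group (replicates 2, 4 and 8) carried the wild-type genotype, and the Sirt2-KO group (replicates 4, 7 and 8) lacked Sirt2, an NAD-dependent deacetylase. All mice were of the C57BL/6 strain, without further treatment in the labels, which give neither the age in months nor how the allele was made. Expression is given in FPKM, sequenced fragments scaled by transcript length and by the mapped total of the library.

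Mast cells are tissue-resident granulocytes that mature under stem cell factor, sit in the adventitia and around vessels, and release stored granules when triggered. In mice the connective tissue type is known for storing Mcpt4, Cma1, Tpsb2 and Cpa3 products bound to heparin, whereas the mucosal type stores the products of Mcpt1 and Mcpt2. Chymases are known for converting angiotensin I to angiotensin II and for cleaving matrix proteins, and mast cell tryptase for forming heparin-bound tetramers.

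Both chymase genes rose in Sirt2-KO aortas. Mcpt4, whose product is regarded as the mouse counterpart of human chymase in function, stood at 3.13, 3.999 and 4.96 FPKM in WT aortas against 13.6, 18.1 and 19.3 FPKM in Sirt2-KO. The groups lay well apart, and the lowest Sirt2-KO aorta was 2.74-fold above the highest WT aorta. The means were 4.03 ± 0.916 and 17.0 ± 3.02 FPKM (SD, n = 3 each), a 4.22-fold ratio. By limma over all 8605 tested genes, the difference of log2(FPKM + 1) was 1.84 (SE 0.199, adjusted p = 0.00979). Cma1, the gene of the chymase also called mast cell protease 5, stood at 2.24, 3.62 and 2.85 FPKM in WT aortas against 7.35, 12.5 and 11.3 FPKM in Sirt2-KO. Its groups did not overlap either, and the lowest Sirt2-KO aorta was 2.03-fold above the highest WT aorta. The means were 2.90 ± 0.692 and 10.4 ± 2.71 FPKM (SD, n = 3 each), with a log2 difference of 1.53 (SE 0.244, limma adjusted p = 0.0282).

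Tpsb2 and Cpa3 did not pass the threshold of 0.05. Tpsb2, which encodes the tryptase known as mast cell protease 6, was at 2.32, 7.29 and 3.73 FPKM in WT aortas against 9.87, 17.0 and 16.8 FPKM in Sirt2-KO. The groups did not overlap, but WT replicate 4 came close to Sirt2-KO replicate 4. The log2 difference was 1.58 (SE 0.364, limma adjusted p = 0.0696), and it was 1.94 with a limma adjusted p = 0.0351 when WT replicate 4 was left out. With any other aorta left out the limma adjusted p lay between 0.067 (Sirt2-KO replicate 4) and 0.237 (Sirt2-KO replicate 8). Cpa3, the gene of the granule carboxypeptidase that trims C-terminal residues and is known in mice to be stored together with the Cma1 product, was the lowest of the set. It stood at 1.19, 2.27 and 1.28 FPKM in WT aortas against 2.98, 4.71 and 5.18 FPKM in Sirt2-KO, again with WT replicate 4 the highest of its group. The means of 1.58 ± 0.600 and 4.29 ± 1.16 FPKM (SD, n = 3 each) gave a log2 difference of 1.04 (SE 0.310, limma adjusted p = 0.113). The pseudocount of 1 FPKM weighs most on this low gene, whose difference was 1.40 (limma adjusted p = 0.109) with a pseudocount of 0.1.

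**Figure D1:**
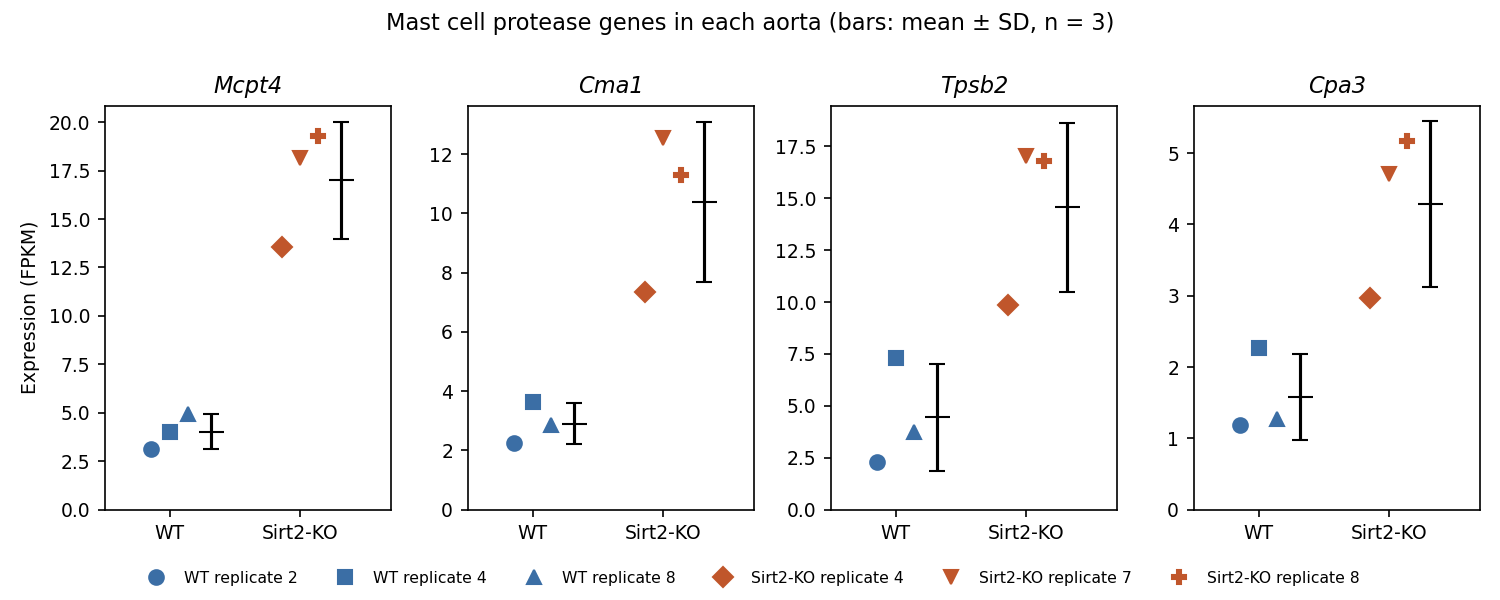
Expression in FPKM (vertical axes, each starting at 0) of Mcpt4, Cma1, Tpsb2 and Cpa3 in 3 WT and 3 Sirt2-KO aortas; each symbol is 1 aorta and the black bars give the mean and SD. In each panel the Sirt2-KO symbols lie above the WT symbols, with the smallest relative gap for Cpa3 and Sirt2-KO replicate 4 the lowest of its group.

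Of the 4 genes tested, 2 were called higher (limma adjusted p under 0.05), where 2.29% of all tested genes were called in that direction and 2.91% in either. Each of the 4 had an unadjusted p under 0.05, as did 24.8% of tested genes. All 4 had every Sirt2-KO value above every WT value, which held for 16.0% of tested genes. Their median log2 difference was 1.56, against -0.08 over all tested genes. Only rows whose variance over the 6 aortas was at least 1.00003 are listed, so genes as low as these could be listed only if their values varied. Within WT alone the SD was under 1 FPKM for Mcpt4 (0.916), Cma1 (0.692) and Cpa3 (0.600). The counts are therefore given as a description. By the size of p Mcpt4 ranked 31st, Cma1 124th, Tpsb2 413th and Cpa3 940th among the 8605 genes. For each of the 4 genes a two-sided exact permutation test returned p = 0.1, the lowest possible with 3 aortas a group. The chymase calls rested on single aortas: none of the 4 genes was called by limma without Sirt2-KO replicate 7 (Mcpt4 adjusted p = 0.0667, Cma1 adjusted p = 0.134) or without Sirt2-KO replicate 8 (0.0820 and 0.147), and Cma1 was not called without WT replicate 2 (0.0891) or WT replicate 8 (0.0637).

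**Figure D2:**
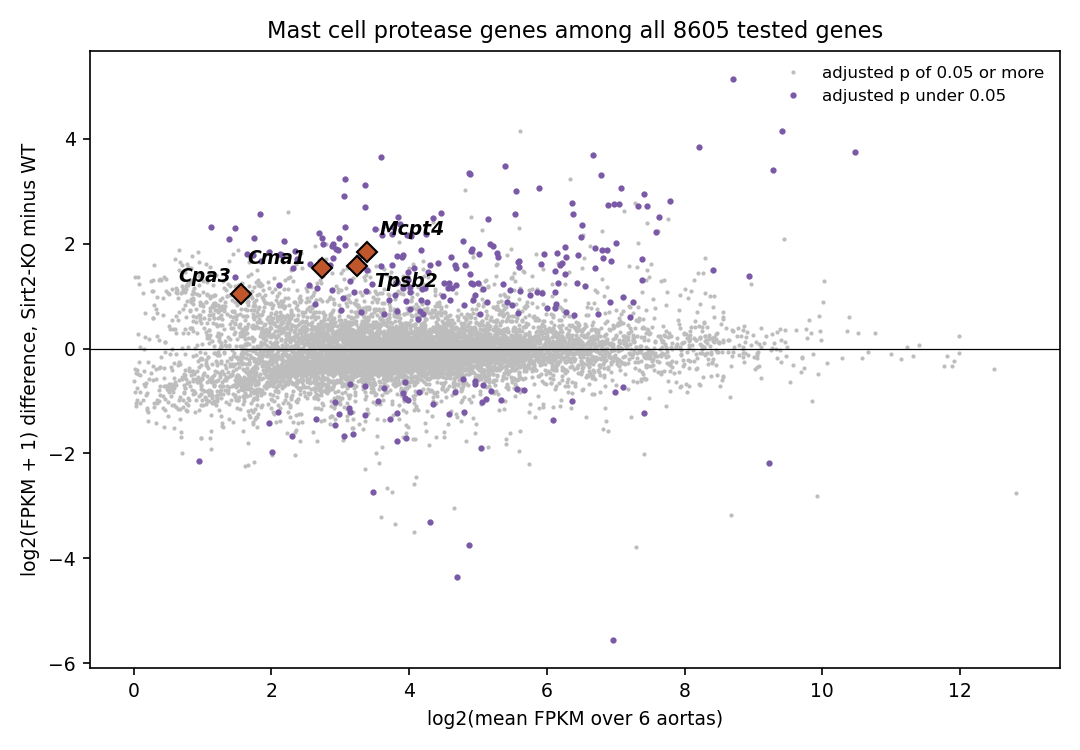
Each point is 1 tested gene, with log2 of its mean FPKM over the 6 aortas on the horizontal axis and its log2(FPKM + 1) difference, Sirt2-KO minus WT, on the vertical axis. Diamonds mark the 4 mast cell protease genes, between 1.04 for Cpa3 and 1.84 for Mcpt4, and purple points are genes with a limma adjusted p under 0.05.

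Set against each other in FPKM, which is scaled by transcript length, the 4 genes kept nearly the same order of level. In the 3 Sirt2-KO aortas and in WT replicates 2 and 8 it was Mcpt4, Tpsb2, Cma1 and Cpa3 from high to low, while in WT replicate 4 Tpsb2 exceeded Mcpt4. The summed level of the set was 8.88, 17.2 and 12.8 FPKM in WT aortas against 33.8, 52.4 and 52.6 FPKM in Sirt2-KO aortas. Mcpt4 and Tpsb2, neighbours in that order, overlapped in WT (4.03 ± 0.916 and 4.45 ± 2.56 FPKM, SD, n = 3) and in Sirt2-KO (17.0 ± 3.02 and 14.6 ± 4.07 FPKM), while within aortas the ratio of Mcpt4 to Tpsb2 ran from 0.548 to 1.35 in WT and was 1.20 ± 0.161 in Sirt2-KO. Cma1 lay below Tpsb2 in each aorta, by a ratio of Cma1 to Tpsb2 of 0.742 ± 0.236 in WT and 0.718 ± 0.0398 in Sirt2-KO (SD, n = 3). Cpa3 lay below Cma1 in each aorta, by a ratio of Cma1 to Cpa3 between 1.60 and 2.66. The ratio of the chymases, Mcpt4 over Cma1, was 1.42 ± 0.319 in WT and 1.67 ± 0.203 in Sirt2-KO (SD, n = 3), with overlapping values. The ratio of Tpsb2 to Cpa3 ran from 1.95 to 3.21 in WT and from 3.25 to 3.62 in Sirt2-KO. Whether the genes differed in the size of their change was not tested.

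Mcpt4 and Cma1 lie in the chymase cluster of chromosome 14, where the RefSeq order (GRCm38.p6, used for order only, since the submitters' notes name mm9) puts 4 protein-coding genes between them, Cma2, Mcpt1, Mcpt2 and Mcpt9, none of them analysed here. Tpsb2 lies in the tryptase cluster of chromosome 17 and Cpa3 on chromosome 3. Among the nearest 10 protein-coding genes on each side of Cma1, the 5 tested genes other than Mcpt4 differed by -0.54 to 0.36 on the log2(FPKM + 1) scale and 0 were called by limma. The 5 tested neighbours of Tpsb2 differed by -0.89 to 0.47 and the 4 of Cpa3 by -0.77 to 0.24, again with 0 called. In size each of these stayed under the 1.04 of Cpa3. Short reads can be shared between relatives, so 50-base stretches of the longest GENCODE M21 transcripts were compared with 15 relatives of each gene. Of the Mcpt4 stretches 5.48% also occurred in a relative, with Cma2 the nearest, and none of the Cma1, Tpsb2 or Cpa3 stretches occurred in a relative.

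The promoters of 3 of the 4 genes, from 250 bases before to 50 after the start site, were taken from RefSeq (GRCm38.p6) and are shown because the genes shared the order of the groups and because GATA factors are known to act in mast cells. Capitals mark the motif GATAA or, on the other strand, TTATC.
Mcpt4, chr14:56062261-56062560, minus strand: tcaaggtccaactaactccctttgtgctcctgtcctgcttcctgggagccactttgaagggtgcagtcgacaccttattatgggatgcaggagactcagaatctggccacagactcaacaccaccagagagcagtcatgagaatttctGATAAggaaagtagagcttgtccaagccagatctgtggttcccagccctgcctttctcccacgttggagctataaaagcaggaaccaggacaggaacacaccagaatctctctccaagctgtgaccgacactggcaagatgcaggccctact
Cma1, chr14:55944626-55944925, minus strand: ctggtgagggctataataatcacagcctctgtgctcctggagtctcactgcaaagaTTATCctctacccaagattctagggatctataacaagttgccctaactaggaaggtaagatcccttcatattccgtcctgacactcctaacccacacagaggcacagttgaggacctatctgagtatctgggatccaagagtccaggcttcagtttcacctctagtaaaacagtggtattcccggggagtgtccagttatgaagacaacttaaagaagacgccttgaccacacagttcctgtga
Cpa3, chr3:20242132-20242431, minus strand: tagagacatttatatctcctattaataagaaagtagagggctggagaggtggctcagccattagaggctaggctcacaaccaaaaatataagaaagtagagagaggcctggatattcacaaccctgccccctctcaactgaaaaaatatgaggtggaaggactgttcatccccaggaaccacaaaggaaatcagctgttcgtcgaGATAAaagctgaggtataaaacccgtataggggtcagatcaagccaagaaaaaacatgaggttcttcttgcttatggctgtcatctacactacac
Each held the motif once on either strand, with its first base 102 bases before the start site in Mcpt4, 194 in Cma1 and 45 in Cpa3. It occurred in 25.4% of the 32851 mouse promoter windows of this length, so a match is a description and not a site of binding. The sequence TATAAA, searched on both strands, occurred in Mcpt4 and Cpa3 and in 13.6% of all windows. The E-box sequence CANNTG, in which N is any base, occurred in Cma1 and Cpa3 but not in Mcpt4, and in 72.3% of all windows.

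The search for genes like the mean profile of the 4 proteases over the 6 aortas left out clone-type names, such as those ending in Rik. The most alike were Clec4a1, C2, Gmfg, Cd209d and Igfbp4. Likeness was the root mean square difference of log2(FPKM + 1) profiles, each centred on its own mean, and it ran from 0.092 for Clec4a1 to 0.139 for Igfbp4, against a median of 0.866 over all tested genes. Clec4a1, a C-type lectin receptor gene of myeloid cells, stood at 0.477, 0.974 and 0.552 FPKM in WT aortas against 2.45, 4.23 and 4.07 FPKM in Sirt2-KO. Like the protease mean it was highest in WT replicate 4 among WT and lowest in Sirt2-KO replicate 4 among Sirt2-KO. Igfbp4, the gene of a binding protein for insulin-like growth factors, was far more abundant, at 174 ± 32.5 FPKM in WT and 508 ± 163 FPKM in Sirt2-KO (SD, n = 3 each). Among the proteases, each of which enters that mean, Cma1 was nearest to it (0.066) and Mcpt4 farthest (0.251). With clone-type names counted, 73 other genes were nearer to the mean than Mcpt4.

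Among other genes of mast cells 1 was called higher. Of 26 such genes listed, covering further proteases, the IgE receptor, amine handling and lipid mediators, 9 were tested. Limma called 1 higher and 0 lower, where 2.91% of all tested genes were called in either direction, and their median log2 difference was 0.44. An unadjusted p under 0.05 was found for 5 of the 9, against 24.8% of all tested genes. For 3 every Sirt2-KO value lay above every WT value, and for 1 below, against 1373 above and 1491 below among the 8605 tested genes. Ltc4s, the leukotriene C4 synthase gene, rose from 9.02, 7.14 and 3.33 FPKM in WT to 26.7, 29.8 and 37.8 FPKM in Sirt2-KO (log2 difference 2.19, SE 0.313, limma adjusted p = 0.0233). The genes that act before it in leukotriene synthesis were not called: the 5-lipoxygenase gene Alox5 differed by 1.65 (limma adjusted p = 0.0986) and its activating protein gene Alox5ap by 1.07 (limma adjusted p = 0.0782). Hdc, the histamine-forming decarboxylase gene, overlapped between groups. WT replicate 2 held 0.514 FPKM of it and WT replicate 4 held 3.32 FPKM, with WT replicate 8 listed at 0, against 1.10, 1.31 and 2.34 FPKM in Sirt2-KO (log2 difference 0.44, SE 0.633, limma adjusted p = 0.668). Gata2, a transcription factor gene that endothelial cells also use, differed by -0.35 (limma adjusted p = 0.406). Fcer1g, the signalling chain of the IgE receptor that other myeloid cells share, differed by 1.05 (limma adjusted p = 0.119). Srgn, the proteoglycan core of granules in many blood cells, differed by -0.74 (limma adjusted p = 0.139). It was lower in each Sirt2-KO aorta (29.05 to 33.0 FPKM) than in each WT aorta (39.6 to 79.7 FPKM). Several of these genes are also used by macrophages, endothelial cells or nerve, and the defining receptor genes Fcer1a, Ms4a2 and Mrgprb2 were not analysed here, so the mast cell label rests on the proteases themselves.

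Signals that act on mast cells were described from the same fit. Over all tested genes 2.91% were called and 24.8% had an unadjusted p under 0.05, so 0 called in a short list is no result about it. Of 14 tested genes for the Kit ligand and for signalling downstream of Kit and the IgE receptor, limma called 0, and 3 had an unadjusted p under 0.05. Kitl, which encodes stem cell factor, stood at 12.3, 15.2 and 12.2 FPKM in WT aortas against 9.90, 12.2 and 11.3 FPKM in Sirt2-KO (log2 difference -0.23, SE 0.141, limma adjusted p = 0.330). The 3 genes were the kinase gene Jak2 (-0.45), the phosphatase gene Ptpn11 (-0.27) and the transcription factor gene Stat5a (1.37), the last listed at 0 in WT replicates 2 and 8. Among 8 cytokines, chemokines and growth factors known to act on mast cells, limma called 1, and 2 had an unadjusted p under 0.05. Ccl11, the eotaxin gene, rose from 5.91, 6.44 and 4.20 FPKM to 13.6, 21.6 and 20.2 FPKM (log2 difference 1.57, SE 0.220, limma adjusted p = 0.0229). Il33, an alarmin that activates mast cells, differed by 0.80 (limma adjusted p = 0.174).

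Genes that the proteases act on or that restrain them are given beside the 2.91% of all tested genes called and the 24.8% at an unadjusted p under 0.05. With lists this short a count of 0 called is no result about them. Of 11 tested genes of the renin-angiotensin, endothelin and thrombin receptor systems limma called 0, and 1 had an unadjusted p under 0.05, the neprilysin gene Mme (log2 difference 1.503, limma adjusted p = 0.165). Ace, the gene of the converting enzyme that shares angiotensin I with chymase, was at 75.8, 86.1 and 82.8 FPKM in WT aortas against 71.6, 94.3 and 73.5 FPKM in Sirt2-KO, with overlapping groups (log2 difference -0.04, SE 0.142). The angiotensinogen gene Agt differed by 1.03 (limma adjusted p = 0.251) and the aminopeptidase gene Enpep by -0.60 (limma adjusted p = 0.373). Of 8 tested protease inhibitor genes limma called 0, with 0 at an unadjusted p under 0.05. The smallest p there belonged to Lxn (-0.48), which encodes the carboxypeptidase inhibitor latexin, Slpi (-1.99), the secretory leukocyte protease inhibitor gene, and Serpina1b (-0.72), an antitrypsin gene. Slpi stood at 17.8, 44.1 and 0.814 FPKM in WT aortas against 0.847, 2.34 and 2.95 FPKM in Sirt2-KO.

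Relatives of Cpa3 and of Kit are likewise given beside the 2.91% of all tested genes called and the 24.8% at an unadjusted p under 0.05. In such short lists 0 called is no result about them. Of 5 other metallocarboxypeptidase genes limma called 0, with 4 at an unadjusted p under 0.05. These were Cpxm2 (log2 difference 1.36, limma adjusted p = 0.0521), Cpxm1 (1.42, limma adjusted p = 0.0782), Cpz (1.14, limma adjusted p = 0.131) and Cpe (-0.63, limma adjusted p = 0.187). Of 3 receptor tyrosine kinase genes of the Kit family, limma called 0, and 2 had an unadjusted p under 0.05, Pdgfra (1.38, limma adjusted p = 0.0614) and Csf1r (1.61, limma adjusted p = 0.0760), while Pdgfrb differed by -0.13.

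In these bulk samples more mast cells and more protease RNA per mast cell cannot be told apart, so markers of other cells are given beside the proteases. Among all 8605 tested genes 3626 were higher, 2.29% were called higher and 2.91% were called in either direction. The counts of each marker list stand beside these shares, and 0 called in a short list is no result about it. Of 16 tested macrophage markers 15 were higher and 1, Folr2, was called by limma (log2 difference 1.77, adjusted p = 0.0260). An unadjusted p under 0.05 in either direction was found for 14 of them, against 24.8% of all tested genes. For 12 markers every Sirt2-KO value lay above every WT value, against 16.0% of all tested genes. For 1 marker every value lay below, as for 1491 of the 8605 tested genes. Their summed level was 198 to 484 FPKM across WT against 521 to 839 FPKM across Sirt2-KO. The sum of 7 genes shared by most leukocytes was 20.0 to 59.6 FPKM across WT against 42.8 to 87.1 FPKM across Sirt2-KO, with overlapping groups and 0 called by limma (2 at an unadjusted p under 0.05). Ptprc, the pan-leukocyte CD45 gene, was listed at 0 in 3 aortas, WT replicates 2 and 8 and Sirt2-KO replicate 4. Adventitial fibroblast markers summed to 1414 to 1772 FPKM across WT against 2811 to 4970 FPKM across Sirt2-KO. Of them 12 of 12 were higher, 10 at an unadjusted p under 0.05, and 4 were called (Pi16, Clec3b, Dpt and Mfap5). White adipocyte markers summed to 717 to 2562 FPKM and 6723 to 8856 FPKM. Of them 10 of 11 were higher, 7 had an unadjusted p under 0.05, and 4 were called (Retn, Cfd, Fasn and Scd1). Red blood cell genes summed to 248 to 368 FPKM and 454 to 1396 FPKM, with 5 of 5 higher and 0 called by limma (4 at an unadjusted p under 0.05). Of the lymphocyte markers 3 were tested and Ighm was called higher (log2 difference 1.80, limma adjusted p = 0.0404). The B cell markers Cd79a (0.10, limma adjusted p = 0.937) and Cd79b (0.27, limma adjusted p = 0.786) overlapped between the groups. Of the neutrophil markers 3 were tested, with sums of 11.7 to 59.6 FPKM across WT against 5.17 to 15.7 FPKM across Sirt2-KO, overlapping groups and 0 called by limma (S100a9 at an unadjusted p under 0.05). Of the basophil markers Cpa3 alone was tested, and eosinophil markers were not analysed here. Of the melanocyte and interstitial cell markers Sox10 (-0.82) and Ano1 (-0.75) were tested and not called, the latter at an unadjusted p under 0.05. Smooth muscle markers identified the tissue, with Acta2 between 3447 and 8512 FPKM, and 8 of 8 were lower with 0 called by limma (1 at an unadjusted p under 0.05), while 8 of 9 endothelial markers were lower with 0 called by limma (3 at an unadjusted p under 0.05). The part of these cell types in the protease differences was not tested.

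**Figure D3:**
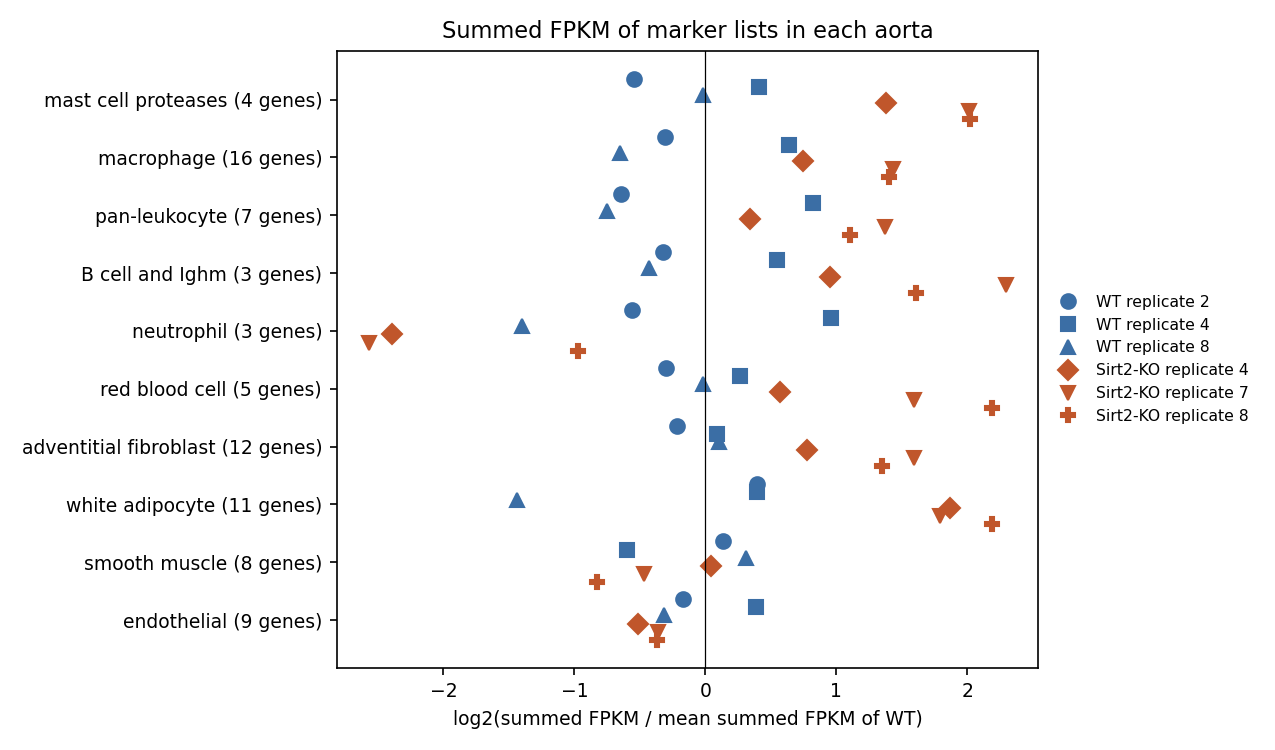
Summed FPKM of each marker list in each aorta, as log2 of its ratio to the WT mean of that sum; blue symbols are WT and orange symbols Sirt2-KO aortas. The protease sum, 8.88 to 17.2 FPKM across WT against 33.8 to 52.6 FPKM across Sirt2-KO, separated the groups. The macrophage, B cell and Ighm, red blood cell, adventitial fibroblast and white adipocyte sums were likewise higher in Sirt2-KO without overlap. Most of the B cell and Ighm sum was Ighm, with a Sirt2-KO mean of 98.3 FPKM against 104 FPKM for the sum. The endothelial sum was lower without overlap, and the pan-leukocyte, neutrophil and smooth muscle sums overlapped.

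The proteases were also expressed as ratios to leukocyte genes, with a pseudocount of 1 FPKM added to both sides of each ratio. With that pseudocount the ratios overlapped between the groups. The log2 ratio of Mcpt4 to the pan-leukocyte sum was -2.45, -3.60 and -1.82 in WT and -1.59, -2.20 and -1.86 in Sirt2-KO, a difference of 0.74 (exact two-sided permutation p = 0.3, adjusted p = 0.533 over 4 genes). It was 0.43 for Cma1, 0.48 for Tpsb2 and -0.07 for Cpa3 (exact permutation p = 0.4, 0.2 and 0.9). Without WT replicate 4 these became 0.25, 0.07, 0.34 and -0.37 in the order Mcpt4, Cma1, Tpsb2 and Cpa3. Without WT replicate 8 they were 1.14 for Mcpt4 and 0.70 for Cma1. With Ptprc alone as the denominator the differences were 1.62 for Mcpt4, 1.31 for Cma1, 1.36 for Tpsb2 and 0.82 for Cpa3 (exact two-sided permutation p between 0.2 and 0.3, adjusted p = 0.3 over 4 genes). Since Ptprc was listed at 0 in 3 aortas, the pseudocount set their denominator, and Cpa3 differed by 0.53 with a pseudocount of 0.1 FPKM and by 0.43 with 5 FPKM. With the pseudocount of 1 FPKM and without WT replicate 4, the Ptprc differences were 0.97, 0.78, 1.06 and 0.34 in the order Mcpt4, Cma1, Tpsb2 and Cpa3. For Cpa3 the difference became 1.36 when Sirt2-KO replicate 7 was left out, or 0.52 when instead replicate 8 of that group was. With 3 aortas a group this test cannot reach 0.05, since its smallest p is 0.1.

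Sirt2 itself checked the labels, with 36.6 FPKM on average in WT and 2.70 FPKM in Sirt2-KO (log2 difference -3.31, limma adjusted p = 0.00156). The column sums over the listed rows ran from 367746 to 396901 FPKM, and no counts are given, which leaves depth per aorta unknown. On the first principal component Sirt2-KO replicate 4, the lowest Sirt2-KO aorta for each protease, lay between the other Sirt2-KO aortas and WT (5.70 against 34.8 and 41.5, and -39.5 to -14.0 in WT). Without that aorta the log2 difference of Mcpt4 was 1.99 (limma adjusted p = 0.0129) and that of Cma1 1.74 (limma adjusted p = 0.0221).

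**Figure D4:**
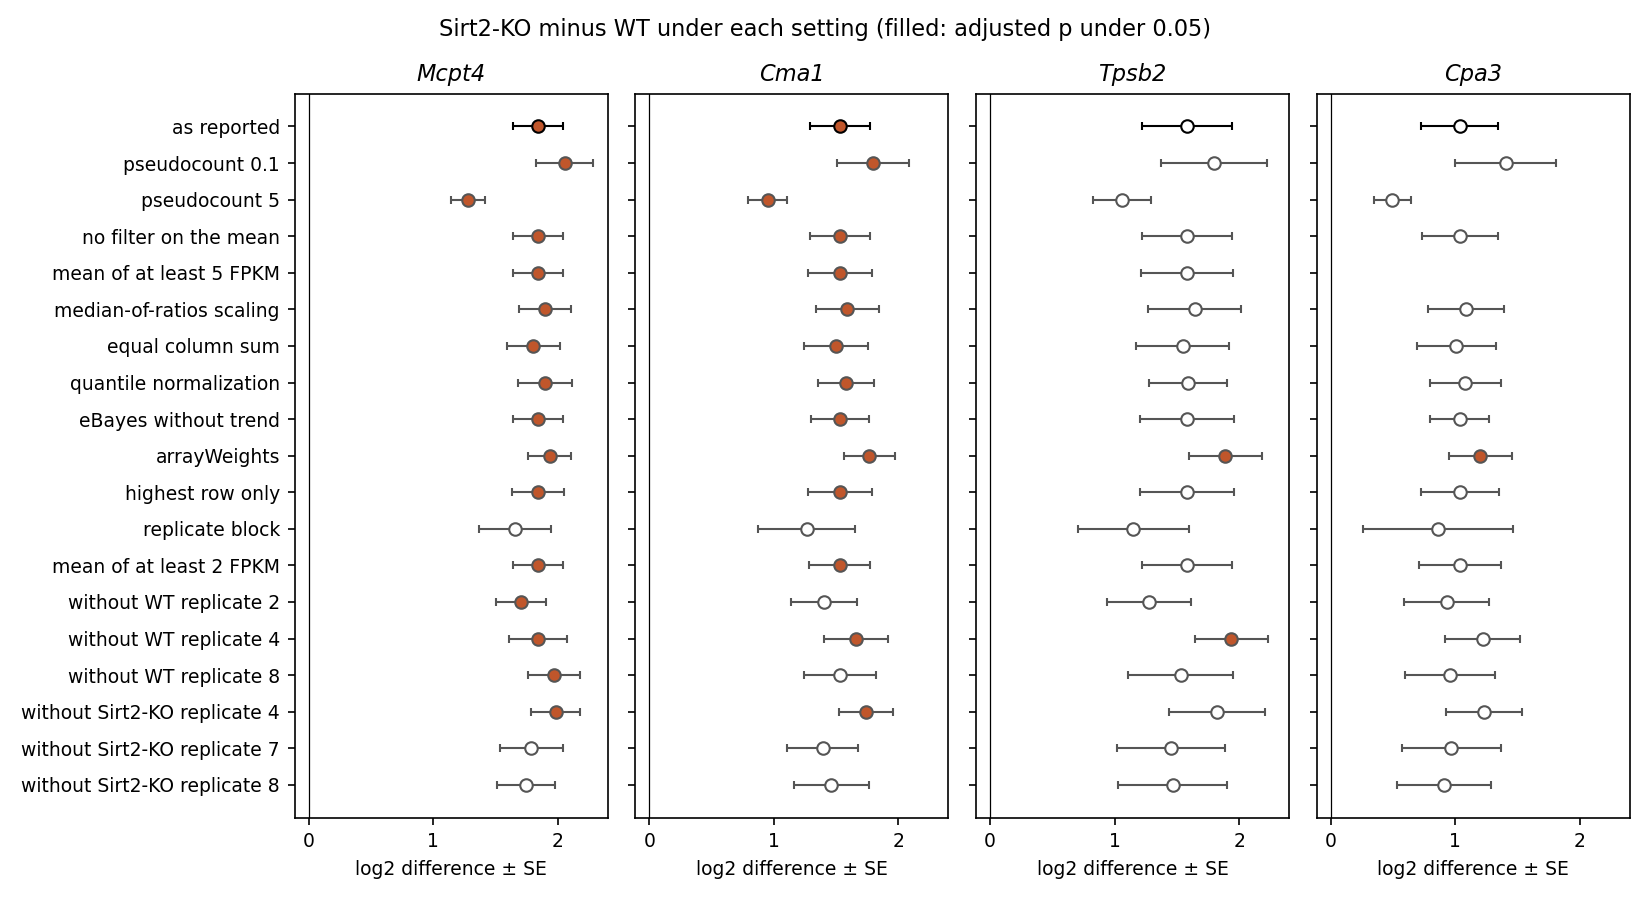
Log2(FPKM + 1) difference of each protease gene, Sirt2-KO minus WT, with its SE (horizontal axes), under the reported fit and each alternative (rows); filled symbols have a limma adjusted p under 0.05. Each symbol lies above 0, and Mcpt4 is filled in the reported fit but not with the replicate block or without Sirt2-KO replicate 7 or 8.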

How the data were processed

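RNA from 6 mouse aortas, 3 WT and 3 Sirt2-KO, was grouped by sample title. The authors deposited FPKM values, with 1 column for each sample per the file headers. The submitters' processing notes name Bowtie 0.12.2 and mm9 without a role, and neither quantifier, annotation nor row filter is stated in the sources used here. The table had 14083 rows. Here 39 rows named by a calendar date were dropped, rows of 1 name were summed (each protease has 1 row), and the 8605 names with a mean of at least 1 FPKM were tested on log2(FPKM + 1) with limma 3.58.1 in R 4.3.3 (eBayes with trend, two-sided, Benjamini-Hochberg over all tested genes, threshold 0.05). Folds are ratios of mean FPKM. Exact permutation tests used SciPy 1.17.1. The fit was tested on simulated data.

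Members, lists and tests were chosen with earlier results of these data known. Named genes are the members, Sirt2, Ptprc, the called genes of each list or the 3 with the smallest p, genes needed to describe a role, and the 5 most like the members. Promoters, transcript comparisons, chromosomal neighbours and ratios between members were added after the values were seen, as were the pan-leukocyte sum and a minimum of 2 FPKM among the alternatives. The planned ratios to Kit were not run. Alternatives covered pseudocounts, filters, scalings, the spread model, the weights of samples, a replicate block, the highest row only and each mouse left out. Figures were drawn with matplotlib 3.10.9.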

Additional observations from a re-analysis of the deposited data

How the results depend on the processing

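Each of the 4 differences stayed positive in each alternative run. With each aorta left out in turn, the log2 difference ran from 1.71 to 1.99 for Mcpt4, 1.39 to 1.74 for Cma1, 1.28 to 1.94 for Tpsb2 and 0.91 to 1.23 for Cpa3, with 0 to 3 of the 4 genes and 28 to 342 of all genes called. With arrayWeights all 4 were called, as were 1114 genes in all, and Tpsb2 then differed by 1.89 (limma adjusted p = 0.0129) and Cpa3 by 1.20 (0.0286). Keeping the highest row per gene, 151 genes were called. The replicate block, with numbers 4 and 8 shared by the groups, left 3 genes called and 0 proteases (Mcpt4 1.66, limma adjusted p = 0.228, and Cma1 1.26, limma adjusted p = 0.531). In that fit WT replicate 2 and Sirt2-KO replicate 7 share no number with the other group and add nothing to the difference. It rests on the aortas numbered 4 and 8, so its calls are not comparable with those of the reported fit. The labels do not say whether samples of the same number belong together. Deviations from the group means correlated by -0.049 for number 4 and -0.452 for number 8, against -0.312 to 0.354 between unlike numbers. Such deviations are tied within each group of 3 aortas, so these values cannot decide whether the numbers mark pairs. The cause of these shifts was not tested. Pseudocounts, scalings, filters and the fit without a trend changed no protease call, and Cpa3 has no value with a minimum mean of 5 FPKM, which it does not reach. The log2 ratio of Cpa3 reversed with the pan-leukocyte sum in place of Ptprc (-0.0653), also when WT replicate 4 (-0.374), Sirt2-KO replicate 4 (-0.165) or Sirt2-KO replicate 8 (-0.109) was left out with that sum, a pairing of choices added after seeing the data. With no counts, the precision that depth gives is unknown.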

Other observations

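Some mast cell genes that other tissues also use were uneven among the aortas. Cyp11a1, the gene of the enzyme that opens steroid synthesis, was at 16.1 FPKM in WT replicate 4 and at most at 0.446 FPKM in the other aortas. Slc18a2, the vesicular amine transporter gene of mast cells and of sympathetic nerve, reached 17.8 FPKM in WT replicate 4, 11.7 FPKM in WT replicate 8 and 14.9 FPKM in Sirt2-KO replicate 4, while the remaining aortas held 1.56, 1.12 and 1.61 FPKM. Neither order matched that of the proteases, whose 3 highest aortas were the Sirt2-KO ones. The neutrophil gene S100a8 was likewise highest in WT replicate 4, at 26.9 FPKM against 2.33 to 5.17 FPKM elsewhere.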
